A study of Homo sapiens with 8 samples.

Results

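The genes of sterol and fatty acid synthesis were followed across 4 groups of SHSY5Y cells, a human neuroblastoma line of neural crest origin. The list holds 34 genes, named from knowledge of the pathways but with earlier results of these data known. Its shares beside those of all genes are therefore descriptions. A gene was read from an array row annotated to it alone, and from the row with the highest mean where there were several. This gave 32 of the 34 genes, out of 18377 genes in all. FDFT1 and HSD17B7 are not analysed here.

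Each of the 8 arrays (Affymetrix Human Gene 1.0 ST) took the RNA of 1 sample, and each group had 2 biological replicates. The groups were V71 DF, V71 NDF, PLKO DF and PLKO NDF. V71 and PLKO are stable SHSY5Y lines, made with lentiviral vectors, selected with puromycin and grown on laminin, and each vector is represented by a single line. NDF cells were kept in growth medium with serum. DF cells received 10 µM retinoic acid for 5 days and then 2 nM BDNF, a neurotrophin, in medium without serum for 3 days. Retinoic acid, BDNF, the loss of serum and the time in culture therefore cannot be told apart in any DF minus NDF difference.

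The labels call the treatment of the PLKO samples shRNA and that of the V71 samples control, whereas in the methods the control vector is pLKO.1-Puro. Labels were kept, and the lines are called by the codes in their titles. The targeted gene is not analysed here and gave no check of the labels. Every difference between lines is given as V71 minus PLKO.

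Values are the deposited log2 values, and differences are on the same scale. Array medians lay between 4.60 and 4.68, arrays of a group had rank correlations of 0.9947 or more and arrays of different groups of 0.9931 or less, and the median residual SD over rows was 0.0996. All 12 noradrenergic neuroblast markers read from single-gene rows lay above the lower quartile of the arrays in all 4 groups. Calls needed an adjusted p under 0.05 (limma, Benjamini-Hochberg over all rows) together with a fold of at least 1.5, and only called genes are said to have risen or fallen. With 2 arrays per group, the p-values measure the spread between these arrays. Bulk RNA cannot tell a change in the RNA of each cell from a change in the share of cells that carry it.

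Cholesterol is built from acetyl-CoA by way of mevalonate, farnesyl diphosphate and squalene, and fatty acids from acetyl-CoA by way of malonyl-CoA. Both routes are controlled by SREBP transcription factors, which are held in the endoplasmic reticulum by INSIG proteins when sterols are plentiful and are released to the nucleus when sterols run short. The nuclear receptor LXR, activated by oxysterols, acts on the opposite side and switches on genes of cholesterol export. Neurons need both routes for the membrane of growing neurites.

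The promoters of the called genes are shown first, because the letters known from SREBP and LXR targets can be looked for there. RefSeq windows of 250 bases before to 50 bases after a start (GRCh38.p14) were given for 29 of the 32 genes, and ACAT2, FASN and SQLE had none. Both strands were searched for the sterol regulatory element TCACNCCAC, the box CCAAT, which binds NF-Y, a partner of SREBP, and a direct repeat of the kind that LXR binds, NGGTNA and NGGTCA with 4 bases between them. Below are the bases before the start of the 8 called genes that had a window, and 80 bases of the SREBF2 promoter, which is shown for its sterol regulatory element and was not called. Matches are in capitals, ATTGG is CCAAT read on the other strand, and the first window is printed for ACSS2 and HMGCS1, each with 2.
ABCA1, chr9:104928156-104928405, minus strand: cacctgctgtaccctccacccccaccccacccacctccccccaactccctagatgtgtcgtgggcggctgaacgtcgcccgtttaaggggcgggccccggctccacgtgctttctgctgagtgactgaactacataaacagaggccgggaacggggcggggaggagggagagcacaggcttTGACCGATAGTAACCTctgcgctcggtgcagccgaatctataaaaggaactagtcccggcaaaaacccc
TM7SF2, chr11:65111622-65111871, plus strand: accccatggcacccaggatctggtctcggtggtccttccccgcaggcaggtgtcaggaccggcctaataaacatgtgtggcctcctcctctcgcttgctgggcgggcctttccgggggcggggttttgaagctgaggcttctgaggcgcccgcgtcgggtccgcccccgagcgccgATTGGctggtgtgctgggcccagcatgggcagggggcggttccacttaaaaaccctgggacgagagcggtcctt
ACSS2, chr20:34874739-34874988, plus strand: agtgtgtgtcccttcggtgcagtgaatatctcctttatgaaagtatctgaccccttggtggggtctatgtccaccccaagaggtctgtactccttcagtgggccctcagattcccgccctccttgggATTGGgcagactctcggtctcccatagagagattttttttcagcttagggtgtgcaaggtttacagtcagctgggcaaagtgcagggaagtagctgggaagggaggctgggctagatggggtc
SCD, chr10:100346983-100347232, plus strand: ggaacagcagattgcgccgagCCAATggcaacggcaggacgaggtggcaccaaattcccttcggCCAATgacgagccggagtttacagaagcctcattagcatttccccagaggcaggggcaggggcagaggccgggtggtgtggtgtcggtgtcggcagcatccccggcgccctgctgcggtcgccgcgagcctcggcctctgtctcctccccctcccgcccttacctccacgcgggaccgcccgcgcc
FDPS, chr1:155308616-155308865, plus strand: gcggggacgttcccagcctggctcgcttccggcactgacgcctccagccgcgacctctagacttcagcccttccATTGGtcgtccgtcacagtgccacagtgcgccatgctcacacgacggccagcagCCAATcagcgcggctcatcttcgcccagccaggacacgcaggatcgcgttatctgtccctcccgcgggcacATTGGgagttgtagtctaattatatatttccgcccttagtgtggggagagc
STARD4, chr5:111512536-111512785, minus strand: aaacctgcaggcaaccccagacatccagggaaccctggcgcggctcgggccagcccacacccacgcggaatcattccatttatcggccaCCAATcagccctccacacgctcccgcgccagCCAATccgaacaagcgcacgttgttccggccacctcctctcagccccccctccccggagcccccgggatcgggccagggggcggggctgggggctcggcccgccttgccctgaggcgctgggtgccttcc
HMGCS1, chr5:43313413-43313662, minus strand: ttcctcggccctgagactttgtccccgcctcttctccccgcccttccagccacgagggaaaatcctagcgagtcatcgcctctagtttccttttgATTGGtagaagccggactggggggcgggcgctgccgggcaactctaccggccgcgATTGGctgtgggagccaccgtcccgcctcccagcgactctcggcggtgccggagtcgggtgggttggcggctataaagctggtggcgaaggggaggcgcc
MSMO1, chr4:165327419-165327668, plus strand: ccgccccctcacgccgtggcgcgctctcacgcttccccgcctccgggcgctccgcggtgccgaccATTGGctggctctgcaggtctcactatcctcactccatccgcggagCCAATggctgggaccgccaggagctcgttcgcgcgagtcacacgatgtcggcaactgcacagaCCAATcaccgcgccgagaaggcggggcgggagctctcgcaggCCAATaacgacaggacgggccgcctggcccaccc
SREBF2, chr22:41832955-41833034, plus strand: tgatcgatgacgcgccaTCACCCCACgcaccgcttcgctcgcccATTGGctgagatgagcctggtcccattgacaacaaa

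CCAAT stood in the windows of 20 of the 29 genes (69.0%) and of 12 of the 14 sterol synthesis genes (85.7%), while 39.7% of 27305 genes held it. The sterol regulatory element was matched in 1 of the 29, SREBF2, where it starts 133 bases before the start, against 1.39% of all genes. Only this string was searched, with its N free, so an element spelled otherwise would have been missed. The LXR-type repeat was matched only in ABCA1 among the 29, 69 bases before the start, against 0.297% of all genes. Read on the other strand, the parts of this match are AGGTTA and CGGTCA. They differ from each other at the first base, which the searched pattern left free in both parts. They also differ at the next to last base, which it left free only in NGGTNA. A repeat with both parts alike would not have matched there. The match in ABCA1 and its rarity therefore depend on how the pattern was spelled. These matches are descriptions of the sequence.

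**Figure D1:**
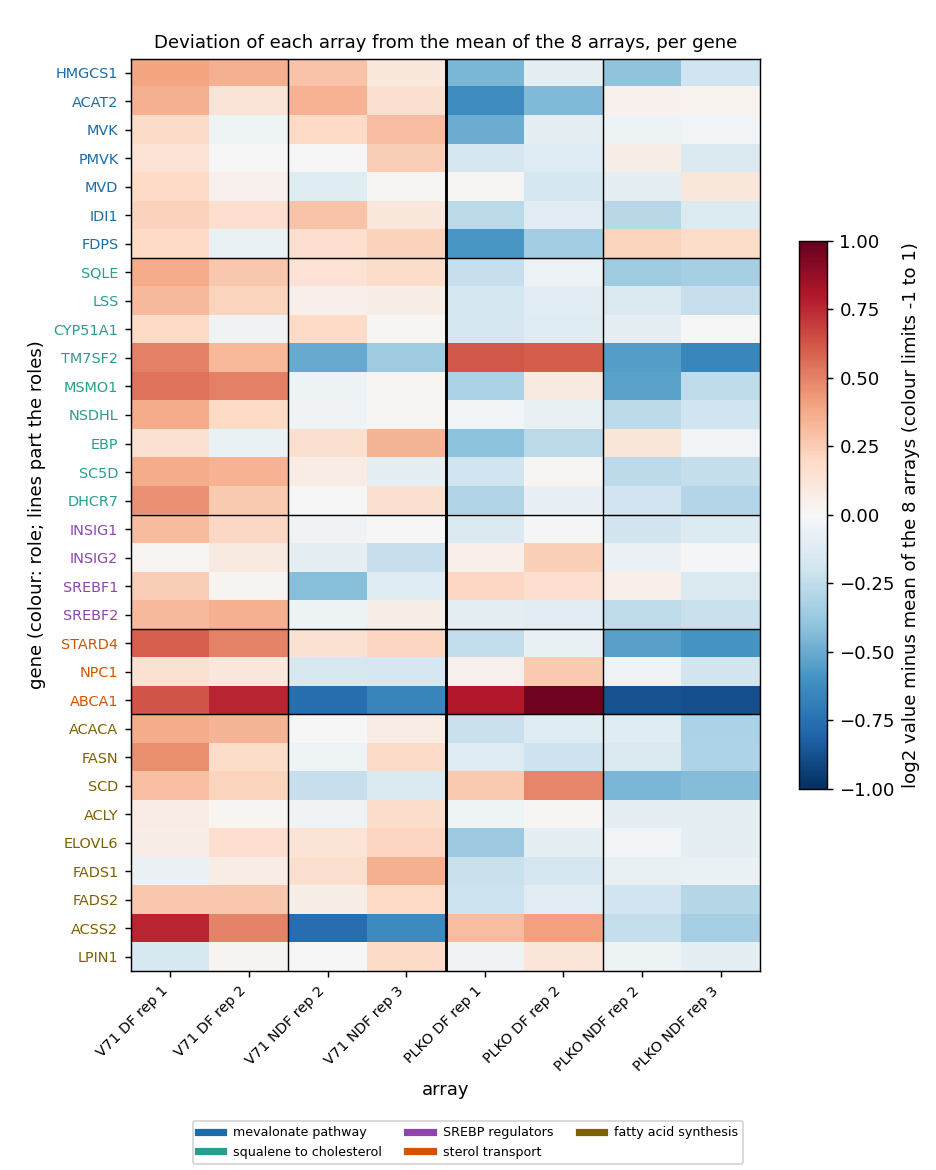
Deviation of each array (columns) from the mean of the 8 arrays for each of the 32 genes (rows, grouped by role), in log2 units with colour limits of -1 and 1. ABCA1, TM7SF2 and ACSS2 separate DF from NDF arrays in both lines, and 15 of the 16 sterol synthesis genes are higher on both V71 DF arrays than on both PLKO DF arrays.

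Upon differentiation a few genes of the list rose in both lines, while most of the sterol synthesis route had no call. In V71 cells, 3 of the 32 genes rose upon differentiation (9.38%, where 3.98% of all genes rose and 7.53% were called in either direction), namely ABCA1, ACSS2 and TM7SF2, and 29 did not pass. In PLKO cells, ABCA1, TM7SF2, SCD and ACSS2 rose and FDPS fell, 5 of the 32 (15.6%, with 7.04% of all genes called, 2.88% higher and 4.16% lower). The median difference of the 32 genes was 0.22 in V71 cells and 0.08 in PLKO cells, and over all genes it was -0.0036 and 0.013. Both arrays of V71 DF lay above both of V71 NDF in 20 genes (62.5%, and 27.7% of all genes), and both of PLKO DF above both of PLKO NDF in 14 (43.8%, and 29.2% of all genes).

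ABCA1, the transporter that loads cellular cholesterol onto apolipoprotein A-I, changed most. Its value was 5.34 and 5.47 in V71 DF against 3.96 and 4.05 in V71 NDF. In the PLKO line it was 5.51 and 5.68 in DF against 3.84 and 3.83 in NDF. All 4 DF arrays lay above all 4 NDF arrays. The difference was 1.40 ± 0.09 in V71 cells (SE, fold 2.64, adjusted p = 1.36e-05) and 1.76 ± 0.09 in PLKO cells (fold 3.39, adjusted p = 2.99e-06). The window of ABCA1 above carries the LXR-type repeat, but a part of LXR in this rise was not tested.

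TM7SF2, a sterol C14 reductase of the steps after lanosterol, rose in both lines. It read 7.18 and 7.01 in V71 DF against 6.18 and 6.33 in V71 NDF, and 7.31 and 7.29 in PLKO DF against 6.13 and 6.03 in PLKO NDF. DF and NDF arrays did not overlap in either line. The difference was 0.85 ± 0.10 in V71 cells (fold 1.8, adjusted p = 0.000361) and 1.22 ± 0.10 in PLKO cells (fold 2.33, adjusted p = 2.99e-05).

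ACSS2 makes acetyl-CoA from acetate in the cytosol and nucleus and so feeds both routes. Its arrays stood at 7.05 and 6.79 in V71 DF against 5.53 and 5.66 in V71 NDF. For PLKO cells the values were 6.60 and 6.71 in DF against 6.06 and 5.96 in NDF. The NDF arrays of the 2 lines were apart, with V71 below PLKO, and the DF arrays of both lines were higher than any NDF array. The rise was 1.33 ± 0.11 in V71 cells (fold 2.51, adjusted p = 4.32e-05) and 0.64 ± 0.11 in PLKO cells (fold 1.56, adjusted p = 0.0036). In PLKO cells the call was lost without moderation of the variance (adjusted p = 0.0664).

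SCD introduces the double bond of oleate and palmitoleate. It was 9.14 and 9.06 in V71 DF against 8.61 and 8.69 in V71 NDF, and 9.10 and 9.33 in PLKO DF against 8.38 and 8.40 in PLKO NDF. DF arrays were higher in both lines, and the PLKO difference of 0.82 ± 0.10 was called (fold 1.77, adjusted p = 0.000413). In V71 cells the difference of 0.45 ± 0.10 had an adjusted p of 0.0138 but a fold of 1.37, under the threshold of 1.5. The change did not pass a test of the difference between the lines (-0.37 ± 0.14, adjusted p = 0.41).

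FDPS, which makes farnesyl diphosphate, the last intermediate shared by sterols, ubiquinone, dolichol and protein prenylation, was the single gene of the list to fall. Its values were 6.24 and 6.47 in PLKO DF against 7.04 and 7.01 in PLKO NDF, a difference of -0.67 ± 0.11 (fold 1.59, adjusted p = 0.00392). In the V71 line it read 7.02 and 6.75 in DF against 6.99 and 7.05 in NDF, with overlapping arrays and a difference of -0.13 ± 0.11. The PLKO call was lost without PLKO DF replicate 1, the lower of its DF arrays, and without moderation of the variance. ACAT2, the acetoacetyl-CoA thiolase that opens the route, had a like difference in PLKO cells, -0.57 ± 0.11 (adjusted p = 0.00787), with a fold of 1.49.

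**Figure D2:**
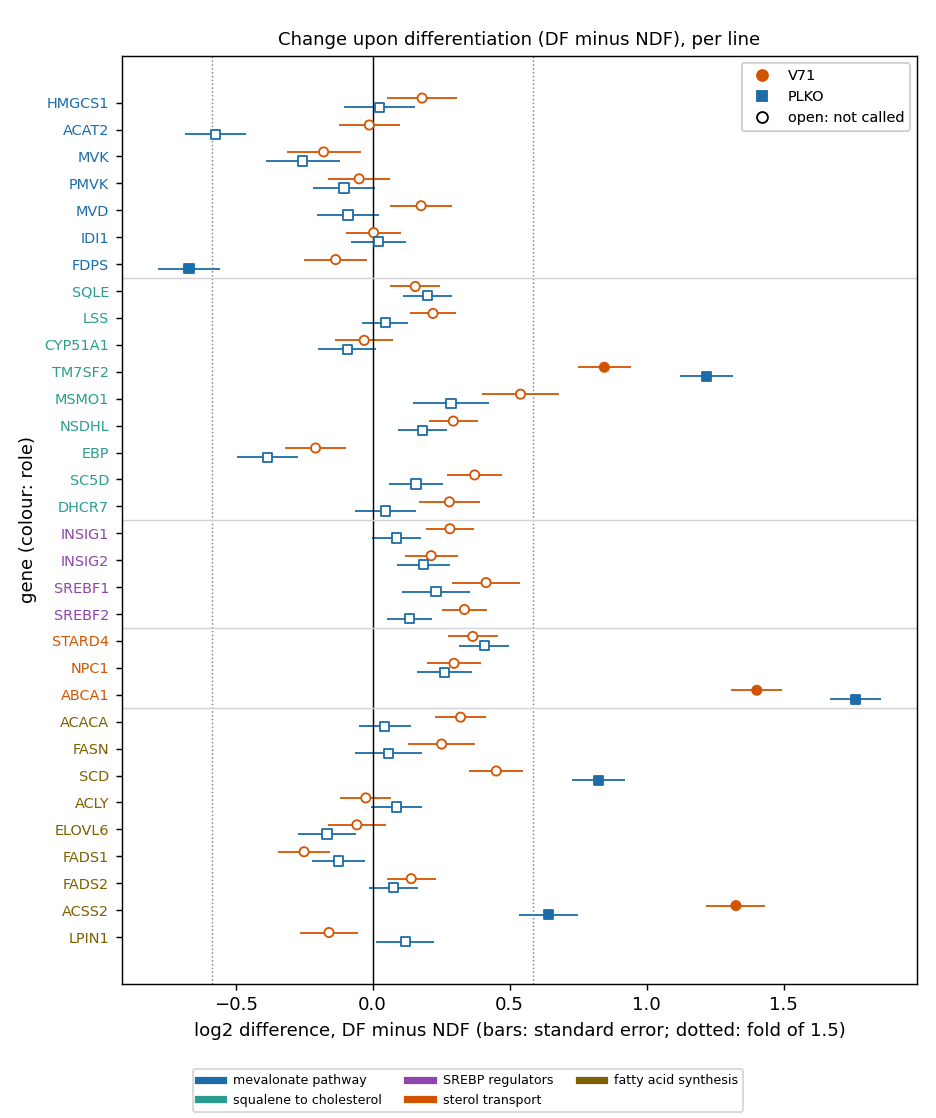
DF minus NDF log2 difference of each gene (rows, by role) in V71 cells (circles) and PLKO cells (squares), with standard errors from limma. Filled symbols are called genes and dotted lines mark a fold of 1.5. ABCA1, TM7SF2 and ACSS2 are filled for both lines, and SCD and FDPS for PLKO.

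The other genes moved less. The mevalonate genes had a median of -0.01 in V71 cells and -0.10 in PLKO cells over 7 genes, and the 9 genes from squalene to cholesterol had medians of 0.28 and 0.16. In V71 cells, 5 genes had an adjusted p under 0.05 with a fold under 1.5, all above 0. They were MSMO1, the C4-methylsterol oxidase (0.54), SCD, SC5D, the C5 desaturase (0.37), STARD4, a soluble sterol carrier (0.37), and SREBF2, which encodes the SREBP most tied to cholesterol synthesis (0.34). With these, 8 of 32 genes passed the adjusted p alone (25%, and 16.5% of all genes), and in PLKO cells 7 of 32 (21.9%, and 15.8% of all genes). The 7 include STARD4, at 0.41 in PLKO cells (adjusted p = 0.017, fold 1.33). The INSIG1 and INSIG2 values differed by 0.28 and 0.21 in V71 cells and by 0.09 and 0.19 in PLKO cells, none of them past the test. NPC1, which moves cholesterol out of lysosomes, differed by 0.30 in V71 cells and 0.26 in PLKO cells and did not pass either.

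V71 and PLKO were then compared in growth medium and after differentiation, on the same arrays as above. With a single line for each vector, an effect of the shRNA cannot be told apart from any other difference between the 2 lines. In NDF, STARD4 was the single gene of 32 that was called (3.12%, with 2.15% of all genes called, 0.615% higher in V71), and it was higher in V71. Small differences ran mostly the same way: both V71 NDF arrays lay above both PLKO NDF arrays in 25 of 32 genes (78.1%, and 26% of all genes). The median difference was 0.23, with 0.01 over all genes. By adjusted p alone SQLE, the squalene epoxidase, was added at 0.51 ± 0.09 (adjusted p = 0.0183), which made 2 of 32 genes (6.25%, and 3.41% of all genes).

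After differentiation 4 of 32 genes were called, all higher in V71 (12.5%, where 1.81% of all genes were called higher and 3.06% in either direction). These were ACAT2, STARD4, HMGCS1 and MSMO1, and none of the 9 fatty acid synthesis genes was among them. Of the 16 sterol synthesis genes, 15 had both V71 DF arrays above both PLKO DF arrays (93.8%, and 24.6% of all genes), the exception being TM7SF2, with both below. The median difference was 0.40 over these 16 genes and 0.36 over all 32, with 0.01 over all genes. By adjusted p alone, 12 of 32 genes were higher in V71 (37.5%, and 6.51% of all genes).

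STARD4 carries sterol between membranes through the cytosol and differed between lines in both conditions. It read 8.12 and 8.01 in V71 DF against 7.27 and 7.44 in PLKO DF, and 7.67 and 7.73 in V71 NDF against 6.97 and 6.93 in PLKO NDF. All 4 V71 arrays lay above all 4 PLKO arrays. V71 was higher by 0.71 ± 0.09 in DF (fold 1.63, adjusted p = 0.00223) and by 0.75 ± 0.09 in NDF (fold 1.68, adjusted p = 0.00206).

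ACAT2 was 7.36 and 7.14 in V71 DF against 6.38 and 6.56 in PLKO DF. In growth medium its values were 7.35 and 7.16 in V71 against 7.05 and 7.04 in PLKO. The PLKO DF arrays stood below the other 6. The difference between lines was 0.78 ± 0.11 in DF (fold 1.71, adjusted p = 0.00372) and 0.22 ± 0.11 in NDF, which did not pass.

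HMGCS1, the synthase that makes HMG-CoA, was 8.21 and 8.17 in V71 DF against 7.36 and 7.72 in PLKO DF, and 8.10 and 7.92 in V71 NDF against 7.42 and 7.62 in PLKO NDF. Every V71 array was above every PLKO array, and the PLKO DF arrays were 0.36 apart. The DF difference of 0.65 ± 0.13 was called (fold 1.57, adjusted p = 0.0197), and the NDF difference of 0.50 ± 0.13 was not (adjusted p = 0.0979).

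MSMO1 was 7.58 and 7.53 in V71 DF against 6.72 and 7.12 in PLKO DF, and 6.98 and 7.05 in V71 NDF against 6.49 and 6.78 in PLKO NDF. V71 was above PLKO within each condition, and PLKO DF replicate 2 lay above the V71 NDF arrays. The DF difference was 0.63 ± 0.14 (fold 1.55, adjusted p = 0.0318) and the NDF difference 0.38 ± 0.14 (adjusted p = 0.265). HMGCS1 and MSMO1 were close to the threshold: without PLKO DF replicate 1, or without V71 DF replicate 1, neither was called and 2 genes were left, ACAT2 and STARD4. Without V71 DF replicate 2 both were lost as well, and FDPS, DHCR7 and FASN were called beside ACAT2 and STARD4. MSMO1 was also lost without either V71 NDF array and with weighted arrays, and was called in 13 of 22 alternatives, HMGCS1 in 16. When variances were not moderated, 0 of the 32 genes were called in either line comparison. Calls over all 18377 genes then fell from 563 to 166 in DF and from 396 to 99 in NDF. Of the 32, 18 in DF and 12 in NDF had an unadjusted p under 0.05 (17.3% and 13.7% of all genes did). With moderation these were 20 in DF and 17 in NDF (62.5% and 53.1%, with 19.5% and 15% of all genes).

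**Figure D3:**
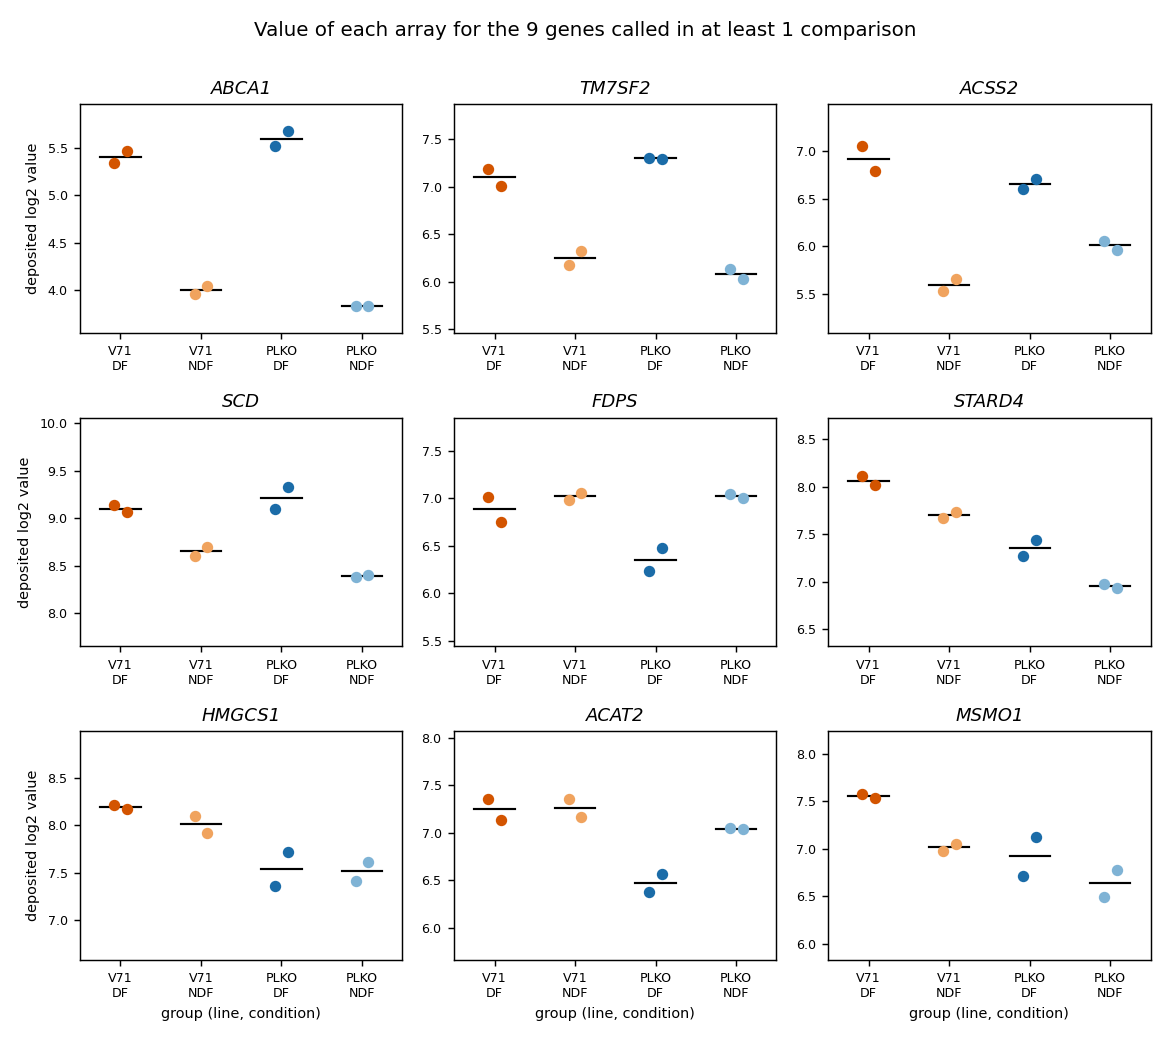
Deposited log2 value of each array (points) and group mean (line) for the 9 genes called in at least 1 comparison, by line and condition. All vertical axes span the same number of log2 units, placed around the values of each gene, and do not start at 0. ABCA1, TM7SF2, ACSS2 and SCD are higher in DF, STARD4 and HMGCS1 are higher in V71, and ACAT2 and FDPS are lowest in PLKO DF.

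The 8 genes past the adjusted p alone in DF, with folds under 1.5, came from each part of the route. They were FDPS (0.53), SQLE (0.46), the lanosterol synthase LSS (0.42), SC5D (0.45), DHCR7, the reductase of the last step to cholesterol (0.55), SREBF2 (0.44), the acetyl-CoA carboxylase ACACA (0.53) and the desaturase FADS2 (0.43). Fatty acid synthase, FASN, differed by 0.50 ± 0.12 in DF and missed the test at an adjusted p of 0.0515. SREBF2 was 7.30 and 7.34 in V71 DF against 6.88 and 6.87 in PLKO DF. Both V71 arrays were above both PLKO arrays, and the same held in NDF, with 6.93 and 7.04 in V71 against 6.73 and 6.76 in PLKO. SREBF1, which encodes the SREBP forms tied to fatty acid synthesis as well, differed by -0.05 in DF and -0.23 in NDF and did not pass.

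The remaining 16 genes had an adjusted p of 0.05 or more in all 5 comparisons, and none of them differed by more than 0.50 between lines or upon differentiation. Among the sterol synthesis genes these were the kinases MVK and PMVK, the decarboxylase MVD and the isomerase IDI1 of the mevalonate route, and CYP51A1, NSDHL and EBP of the steps after squalene. Of these 7, IDI1 had the lowest adjusted p between lines, with 7.80 and 7.74 in V71 DF against 7.30 and 7.46 in PLKO DF, where V71 was above PLKO by 0.39 ± 0.10 (adjusted p = 0.0634). Outside sterol synthesis, FASN (given above) and INSIG1, by 0.34 ± 0.09 (adjusted p = 0.062), were nearer to the threshold in DF. EBP, the sterol isomerase, had the lowest DF minus NDF value of them, -0.38 in PLKO cells (adjusted p = 0.0518), and -0.21 in V71 cells. On the fatty acid side, ACLY, which makes cytosolic acetyl-CoA from citrate, stayed between 8.85 and 9.12 on all 8 arrays. The elongase ELOVL6, the desaturase FADS1 and the phosphatidate phosphatase LPIN1 differed between lines by 0.35, 0.20 and -0.11 in DF and by 0.24, 0.33 and 0.17 in NDF, without passing.

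The median deviation of the 32 genes from their own means was 0.31 and 0.19 on the V71 DF arrays against -0.17 and -0.09 on the PLKO DF arrays, and -0.0028 and 0.09 on the V71 NDF arrays against -0.14 and -0.19 on the PLKO NDF arrays. Arrays of the lines did not overlap in either condition. For the 7 mevalonate genes PLKO DF replicate 1 stood lowest, at -0.45, with -0.13 on replicate 2.

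The 4 genes that rose upon differentiation did not differ past the test between the lines in DF. The difference there was -0.20 for TM7SF2, -0.19 for ABCA1, -0.11 for SCD and 0.27 for ACSS2. FDPS and ACAT2, whose values were lower upon differentiation in PLKO cells, did differ between lines in DF, as given above. In NDF, ACSS2 had the lower value in V71, by -0.42 ± 0.11 (adjusted p = 0.0968).

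**Figure D4:**
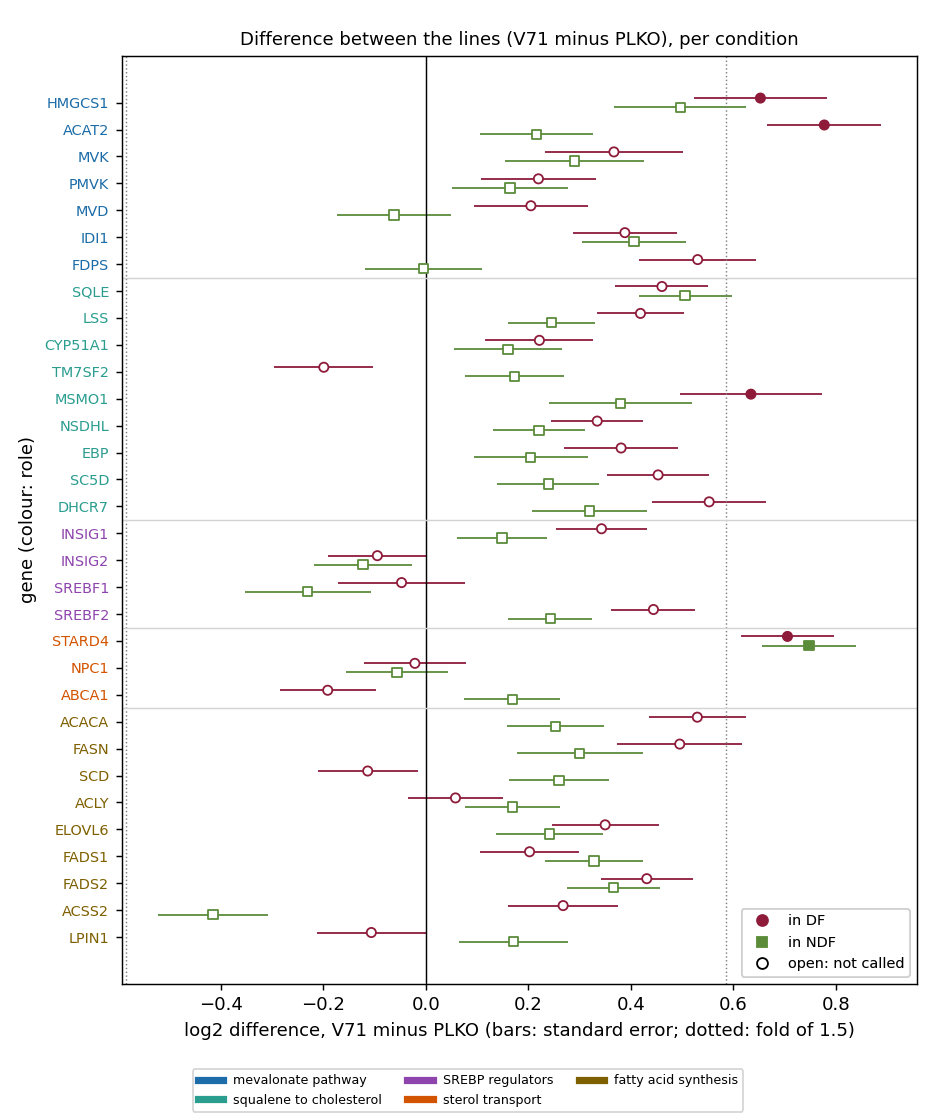
V71 minus PLKO log2 difference of each gene (rows, by role) in DF (circles) and NDF (squares), with standard errors from limma. Filled symbols are called genes and dotted lines mark a fold of 1.5. ACAT2, STARD4, HMGCS1 and MSMO1 are filled in DF and STARD4 in NDF, and 25 of 32 genes in DF and 26 of 32 in NDF lie above 0.

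Whether the response to differentiation itself differed between lines was tested as the interaction, the V71 change minus the PLKO change. It was called for 0 of the 32 genes by limma (1.39% of all genes were), and 6 had an unadjusted p under 0.05 (18.8%, with 10.2% of all genes). Without moderation of the variance 0 were called, with 3 calls over all genes. Then 7 had an unadjusted p under 0.05, as 9.62% of all genes did. The smallest adjusted p belonged to ACSS2, at 0.68 ± 0.15 (adjusted p = 0.0955), followed by ACAT2 at 0.56 ± 0.16 (adjusted p = 0.207) and FDPS at 0.54 ± 0.16 (adjusted p = 0.253). The calls for ACAT2, HMGCS1 and MSMO1 in DF but not in NDF therefore do not show that the lines differed more after differentiation.

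Genes of the same pathways outside the list gave a mixed picture. Of 24 further SREBP targets and sterol pathway genes, 3 rose and 2 fell in V71 cells, and 1 rose and 2 fell in PLKO cells. The called shares were 20.8% in V71 and 12.5% in PLKO cells, with 7.53% and 7.04% of all genes. LBR, an inner nuclear membrane protein, is the other sterol C14 reductase. It fell to 7.71 and 7.73 in V71 DF, against 9.19 and 9.14 in V71 NDF, and to 7.55 and 7.65 in PLKO DF, against 8.73 and 8.76 in PLKO NDF. The differences were -1.45 ± 0.08 in V71 cells (adjusted p = 5.35e-06) and -1.15 ± 0.08 in PLKO cells (adjusted p = 1.61e-05), so the genes of the 2 enzymes for this step, TM7SF2 and LBR, moved in opposite directions in both lines. GPR155, a lysosomal membrane protein that senses cholesterol, rose by 1.55 ± 0.09 in V71 cells and 1.34 ± 0.09 in PLKO cells, and was lower in V71 in DF (-0.64) and in NDF (-0.85). TMEM97, a sterol-responsive membrane protein that binds NPC1, fell in both lines, by 0.66 in V71 and 0.73 in PLKO cells. PCYT2, of phosphatidylethanolamine synthesis, rose by 0.68 in V71 cells.

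Between lines, the same 24 genes had 1 higher and 1 lower call in DF (8.33%, with 3.06% of all genes), 1 lower in NDF (4.17%, with 2.15%), and medians of 0.01 and -0.01. FAXDC2, of the fatty acid hydroxylase superfamily, was the gene higher in V71 DF. Its values were 5.58 and 5.60 in V71 DF against 4.50 and 4.46 in PLKO DF, and 4.61 and 4.77 in V71 NDF against 4.66 and 4.79 in PLKO NDF. The V71 DF arrays stood above the other 6, and the difference in DF was 1.11 ± 0.09 (fold 2.16, adjusted p = 0.000147).

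Of 33 further genes of fatty acid and glycerolipid synthesis, 4 rose and 2 fell in V71 cells and 2 fell in PLKO cells. That was 18.2% of the list in V71 and 6.06% in PLKO cells, with 7.53% and 7.04% of all genes. The elongases of long chains went different ways: ELOVL2, which extends polyunsaturated chains, fell by 1.19 in V71 and 1.10 in PLKO cells, and ELOVL1 fell by 0.62 in V71 and 0.78 in PLKO cells. ELOVL7 (0.72), ELOVL4 (0.64), HSD17B12, the ketoreductase of chain elongation (0.67), and DGAT2, which makes triglyceride (0.63), rose in V71 cells. In PLKO cells DGAT2 (0.54, adjusted p = 0.0294) and ELOVL4 (0.44, adjusted p = 0.0394) differed the same way, with folds of 1.45 and 1.36. ELOVL7 (0.13) and HSD17B12 (0.31) did not pass there. HACD2, a dehydratase of the same elongation cycle, was lower in V71 in DF (-0.78 ± 0.09, adjusted p = 0.00147) and in NDF (-0.99 ± 0.09, adjusted p = 0.000374). ELOVL1 was higher in V71 DF (0.61), and GPAM, of glycerolipid synthesis, was higher in V71 NDF (0.59).

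Of 34 further genes of cholesterol export, uptake and storage, LXR targets among them, 2 rose in V71 cells, NPC2 (0.59), the partner of NPC1, and OSBPL5 (0.67), and 1 in PLKO cells, PLTP (0.76), an LXR target that transfers phospholipid. These shares, 5.88% in V71 and 2.94% in PLKO cells, were below the 7.53% and 7.04% of all genes. PLTP also differed by 0.53 in V71 cells (adjusted p = 0.00768), with a fold of 1.44. VLDLR, a lipoprotein and reelin receptor, was higher in V71 in DF (0.88 ± 0.08, adjusted p = 0.000381) and in NDF (1.27 ± 0.08, adjusted p = 4.14e-05). NPC2 (0.65) and CYP7B1, an oxysterol hydroxylase (0.67), were also higher in V71 DF, which made 3 of the 34 in DF (8.82%, with 3.06% of all genes) and 1 in NDF (2.94%, with 2.15%). Of 17 fatty acid oxidation genes limma called 0 in each of the 5 comparisons. At an unadjusted p under 0.05 there were 4 in V71 and 3 in PLKO upon differentiation, 6 in DF and 2 in NDF between lines, and 0 in the interaction. Those shares of the 17 genes were 23.5%, 17.6%, 35.3%, 11.8% and 0%, with 29.1%, 28%, 19.5%, 15% and 10.2% of all genes.

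Other markers moved with these comparisons. Of 32 S phase and mitosis genes, 29 fell in V71 cells and 31 in PLKO cells upon differentiation (3.55% and 4.16% of all genes fell). Their summed level, on the linear scale, was 4238 to 4438 in V71 DF against 9325 to 9366 in V71 NDF, and 2988 to 3218 in PLKO DF against 8289 to 8474 in PLKO NDF. In DF, 16 of the 32 were higher in V71 than in PLKO (50%, with 1.81% of all genes) and none lay below the lower quartile of the arrays. Their part in the sterol gene differences was not tested.

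Of 18 markers of substrate-adherent (S-type) neuroblastoma cells, 4 were lower in V71 in DF (22.2%, with 1.26% of all genes) and 7 in NDF (38.9%, with 1.54% of all genes). They summed to 490.5 to 522.1 in V71 DF against 1018 to 1038 in PLKO DF, and 546.4 to 591.4 in V71 NDF against 1200 on both arrays of PLKO NDF, with 1 to 3 of them under the lower quartile in a group. The median difference over the 18 genes was only -0.10 in DF and -0.14 in NDF, and 7 and 5 of them lay above 0. The 12 noradrenergic markers summed to 6848 to 6901 in V71 DF against 5700 to 6056 in PLKO DF, and 6771 to 7020 in V71 NDF against 6227 to 6369 in PLKO NDF. Their genes went both ways, with 1 higher and 1 lower in V71 in DF and 2 higher and 1 lower in NDF. The called shares were 16.7% in DF and 25% in NDF, with 3.06% and 2.15% of all genes. The part of these markers in the differences between lines was not tested. Of 14 retinoic acid response genes, 6 rose in V71 cells and 7 in PLKO cells (42.9% and 50%, with 3.98% and 2.88% of all genes). The interaction was called for 3 of the 14 (21.4%, with 1.39% of all genes), 2 above 0 and 1 below. It was also called, above 0, for 4 of the 32 S phase and mitosis genes (12.5%) and 3 of the 18 S-type markers (16.7%). Schwann cell markers, 6 genes, summed to at most 79.4 in any group, and limma called 0 of them in any comparison, with at most 1 at an unadjusted p under 0.05.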

How the data were processed

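The authors used RMA (Partek Genomics Suite 6.5) to normalize and summarize the 8 arrays and deposited log2 expression values, which were taken unchanged. Of 28869 rows, 19310 are annotated to 1 gene, 1752 to several and 7807 to none. The row with the highest mean stood for each of 685 genes with several rows. Every row entered the model and the adjustment. The build of the array annotation is not given in the sources used here.

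Samples were grouped by their titles. The fit (limma 3.58.1, R 4.3.3) had a mean for each of the 4 groups and eBayes moderation, on 4 residual degrees of freedom and 5.43 from the prior. Contrasts were DF minus NDF per line, V71 minus PLKO per condition, and the interaction. Errors are limma standard errors. The fit was tested on simulated data. The number of arrays limits the precision. Lists were counted only, with no test of a list. They covered SREBP and sterol genes, fatty acid and glycerolipid synthesis, LXR and cholesterol handling, fatty acid oxidation, S phase and mitosis, retinoic acid response, and noradrenergic, S-type and Schwann cell markers. Members and lists were chosen with earlier results of these data known. Any member could be named, with all 8 arrays given for called members, and from each wider list and comparison at most 6 called genes, by size of change. Arrays of SREBF2, LBR and FAXDC2 were added after their values were seen. As alternatives, variances were left unmoderated (analysis of variance, as in the methods) or given a trended, robust prior. Values were renormalized in 3 ways (quantile, median, cyclic loess), rows under the 33rd percentile of the mean were dropped, rows of a gene were averaged, p was adjusted over single-gene rows, arrays were weighted, the fold threshold was moved, and the fit was run on the 4 arrays compared, with a replicate block, and without each array.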

Additional observations from a re-analysis of the deposited data

Results flagged for a closer look

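FAXDC2, of the fatty acid hydroxylase superfamily and one of the genes outside the list, responded to differentiation differently in the 2 lines. It rose by 0.90 ± 0.09 in V71 cells (SE, adjusted p = 0.000177) and differed by -0.24 ± 0.09 in PLKO cells, which did not pass (adjusted p = 0.136). The interaction was 1.14 ± 0.13 (limma, adjusted p = 0.00309). It was called in 20 of 21 alternatives, with adjusted p between 0.0021 and 0.124, and was lost without moderation of the variance. It was picked out by the test of the interaction among 123 interactions looked at.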

How the results depend on the processing

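Direction was checked for members past the adjusted p or the fold and for called genes of the wider lipid lists. None of these turned in any alternative. The calls for ABCA1 in both lines, ACSS2 in V71 and TM7SF2 in PLKO cells held in all 20 alternatives run for each. With a fold of at least 2, the number of genes called of the 32 was 2 for DF minus NDF in PLKO, 0 for V71 minus PLKO in DF and 0 in NDF. With no fold threshold it was 8 for DF minus NDF in V71, and 12 in DF and 2 in NDF between lines. Without moderation of the variance it was 3 for DF minus NDF in PLKO and 0 for both line comparisons. Calls over all genes then fell from 1293 to 920 in PLKO, and between lines from 563 to 166 in DF and from 396 to 99 in NDF. With only the 4 arrays compared it was 2 for V71 minus PLKO in DF, ACAT2 and STARD4. With each array left out in turn, the counts ran from 3 to 3 (V71) and 4 to 6 (PLKO) upon differentiation, and from 2 to 6 in DF and 1 to 1 in NDF between lines. The count of 2 came without PLKO DF replicate 1 and without V71 DF replicate 1. The median difference of the 32 genes then ran from 0.16 to 0.26 (V71) and 0.03 to 0.14 (PLKO) upon differentiation, from 0.28 to 0.45 in DF and 0.20 to 0.28 in NDF between lines, and from 0.037 to 0.18 for the interaction, lowest without PLKO DF replicate 1. Over single genes and counts of the wider lists together, 2001 alternative values were classed as the same, 163 as weaker and 53 as stronger. For a gene these mean a call kept, lost or gained. For a list they mean a count within, below or above a set ratio of the main count. For the counts and medians of the 32 genes, 169 alternative values were classed as the same, 9 as weaker, 3 as stronger and 4 as moved. A moved median had shifted by at least 0.064, the spread of that median between replicates. The causes were not tested. Same-numbered arrays of the 2 lines share only a number: their deviations correlated at -0.18 in NDF and 0.19 in DF. With the replicate number as a block, 4 genes were called in DF, 1 in NDF and 0 in the interaction, as without it. With the NDF numbers crossed, chosen after seeing the data, the block gave 4, 1 and 0. No paired analysis was possible for DF minus NDF because the conditions share 1 replicate number only. The 2 arrays per group limit every value.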
